A study of Homo sapiens with 8 samples.

Results

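The 3′UTR peaks of N6-methyladenosine (m6A) in Mel624 cells are the stretches of mRNA that the deposited m6A-seq peak lists assign to the 3′ untranslated region, the part of an mRNA after its stop codon. All entries with that region label were taken, which gave 3942 of 18551 peaks in shFTO cells and 4160 of 19072 peaks in shNC cells, 8102 of 37623 in both lists together. The label did not depend on any score. Mel624 is an established human melanoma line, and both groups were infected with lentivirus that carries a short hairpin RNA, against the m6A demethylase FTO in shFTO cells and a negative control hairpin in shNC cells. The comparison asked where m6A lies, and how strongly, after knockdown of FTO. Each group had 2 replicates with an m6A-IP and an input library each, 8 libraries in all. Infected cells were selected with puromycin, the labels name no further treatment, and whether a line was 1 clone, or the replicates were separate cultures, is not stated. The p-values below therefore measure only the spread between these libraries, which may be technical.

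In m6A-seq, fragmented mRNA is pulled down with an antibody against m6A, and a peak is a stretch enriched over the input. The deposited log2 enrichment score of a peak, given for each replicate, sets this enrichment against the median window of the same mRNA, so it is a level relative to the rest of that mRNA. Read counts are not in the lists, so the depth of the libraries is unknown here. A peak can miss a list because it fell under the authors' thresholds or because its mRNA was too scarce to be read, and less m6A per molecule and fewer molecules cannot be told apart in the list.

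m6A is placed on nascent mRNA by a complex around METTL3 and METTL14 at short sequences of which GGACU is the best known, and it is removed by FTO and ALKBH5. In many mammalian mRNAs it is densest near the stop codon and along the 3′UTR. The 3′UTR also holds binding sites for microRNAs, for proteins that control decay, translation and localization, and the signals for cleavage and polyadenylation. Cytoplasmic reader proteins, among them YTHDF2, bind m6A in such regions and can hasten the decay of the mRNA.

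The sites shown here are GGACU motifs inside 3′UTR peaks that the later results turn on. The first set comes from the strongest peaks of both lists, the second from pairs chosen for their large ratios, and the last from the shFTO list alone. Shown are only peaks with a listed GGACU and a matched transcript. Among the strongest, the PURB and ATP8B2 peaks held no listed GGACU in either list. The same was true of the ratio pairs of ONECUT2, PLEKHM3, MAGI3, WIPI2, SPRED1, TFDP1, IL16, YEATS2 and IPO9. Each is 30 bases of the mRNA, read from GENCODE version 44 transcripts on GRCh38 (hg38) after the isoform coordinates had been matched through the deposited motif positions, and the capitals mark GGACU.
MBTPS1: ucccgucaggagGGACUuaguggcucugcc
PAFAH2: agcaguagagugGGACUgggggagacccag
MCM3: aagcugaguucaGGACUcgguggacccuuu
THBS1: ucucugagcaguGGACUcaaaagcauuuuc
AKAP7: aauggagugcugGGACUggcagaggaaauu
ITGAX: guguuccccaaaGGACUugacuugcaauuu
BCLAF3: uaagauucaccaGGACUaggcauuucccag
ARHGAP10: gauucgcaaaauGGACUuuucauuugucaa
PLEKHA6: uaucuuaugugaGGACUagaggugaagagg
All 9 sites lie in the last exon of their transcript. Among the strongest peaks, the MBTPS1 site (chr16:84054226-84054255, minus strand, exon 23) lay 208 nt after the stop codon of a 3′UTR of 686 nt. The PAFAH2 site (chr1:25961712-25961741, minus strand, exon 11) lay 262 nt, the MCM3 site (chr6:52264423-52264452, minus strand, exon 17) 150 nt and the THBS1 site (chr15:39595705-39595734, plus strand, exon 22) 350 nt after the stop codon. Of the pairs chosen for their ratios, the AKAP7 site (chr6:131281903-131281932, plus strand, exon 8) lay 191 nt, the ITGAX site (chr16:31382118-31382147, plus strand, exon 30) 225 nt and the ARHGAP10 site (chr4:148072297-148072326, plus strand, exon 23) 230 nt after the stop codon. The BCLAF3 site (chrX:19914121-19914150, minus strand, exon 12) lay 3169 nt into a 3′UTR of 4445 nt, and the PLEKHA6 site (chr1:204222361-204222390, minus strand, exon 23) 412 nt into one of 3935 nt. Distances run to the A of GGACU.

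The 3′UTR label was compared with the stop codon of the transcripts it could be set against. Of 3254 isoforms with a 3′UTR peak, 1289 had at least 2 listed GGACU motifs and 1058 of them matched a transcript at 1 stop codon position. Of the 3242 peaks with the 3′UTR label on these isoforms, 3241 began after the last coding base, whereas all 1108 peaks with the stop codon label reached across it. Matching itself required the region labels of the listed motifs to fit the coding sequence, so this agreement was partly built in. On these isoforms a 3′UTR peak is a peak that begins after the last coding base. Its neighbour across the stop codon was counted elsewhere by the authors. Of the 8 melanoma and melanocyte markers, 7 had a peak of any region in each list, against 1 of 5 leukocyte markers (LYZ) and 0 of 4 markers each of keratinocytes and fibroblasts.

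The 3′UTR held about the same share of the peaks with and without FTO knockdown. In the shFTO list 21.2% of the peaks were 3′UTR peaks (95% confidence interval 20.7 to 21.8, exact Clopper-Pearson), and in the shNC list 21.8% were (21.2 to 22.4). The difference was -0.56 percentage points (Newcombe interval -1.39 to 0.27), and these intervals cover counting error only. The peaks were spread over 2739 of 9475 mRNAs or noncoding RNAs with any peak in shFTO cells and 2807 of 9296 in shNC cells. Most of these genes had a single 3′UTR peak, 1939 in shFTO cells and 1925 in shNC cells, while 253 and 295 genes of the shFTO and shNC lists had 3 or more.

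The levels of 3′UTR peaks were also alike in the 4 replicates. The median log2 enrichment score was 2.68 and 2.61 in shFTO replicates 1 and 2, against 2.68 and 2.61 in shNC replicates 1 and 2. Scores of single peaks in single replicates ran between 0.29 and 7.07 in shFTO cells and between 0.22 and 7.58 in shNC cells. The median width was 255 nt in shFTO cells and 250.5 nt in shNC cells. In genes with peaks in both places, the stop codon peak had the higher score somewhat more often. Over 1019 such genes of the shFTO list the highest 3′UTR peak exceeded the stop codon peak in 45.0% (replicate 1) and 43.1% (replicate 2), and over 1149 genes of the shNC list in 45.3% and 46.3%. The median difference of the 3′UTR peak from the stop codon peak was -0.17 and -0.23 on the log2 scale in the shFTO replicates and -0.16 and -0.14 in the shNC replicates. For 822 genes of the shFTO list and 745 genes of the shNC list the 3′UTR was the only region with a peak.

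The peaks were placed along the 3′UTR where the isoform could be matched, which was so for 1550 peaks of the shFTO list and 1648 of the shNC list. The centre of the peak lay a median of 930.25 nt after the stop codon in shFTO cells and 900.5 nt in shNC cells, in 3′UTRs with median lengths of 2583 and 2522 nt. The first 25% of the length of the 3′UTR held 36.2% of the placed peaks of shFTO cells and 36.7% of those of shNC cells, and the last 25% held 17.7% and 16.8%. Median scores were not steady along the 3′UTR. Peaks centred 200 to 500 nt after it had median scores of 3.10 and 3.01 in the shFTO replicates and 3.04 and 2.99 in the shNC replicates, whereas peaks 2000 to 4000 nt after it had 2.46 and 2.40 in the shFTO replicates and 2.56 and 2.51 in the shNC replicates. Beyond 4000 nt they were 2.77 and 2.58 in the shFTO replicates (123 peaks) and 2.64 and 2.76 in the shNC replicates (103 peaks). The isoforms that could be matched are those with several GGACU motifs, so they are not a random sample of all 3′UTRs.

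**Figure D1:**
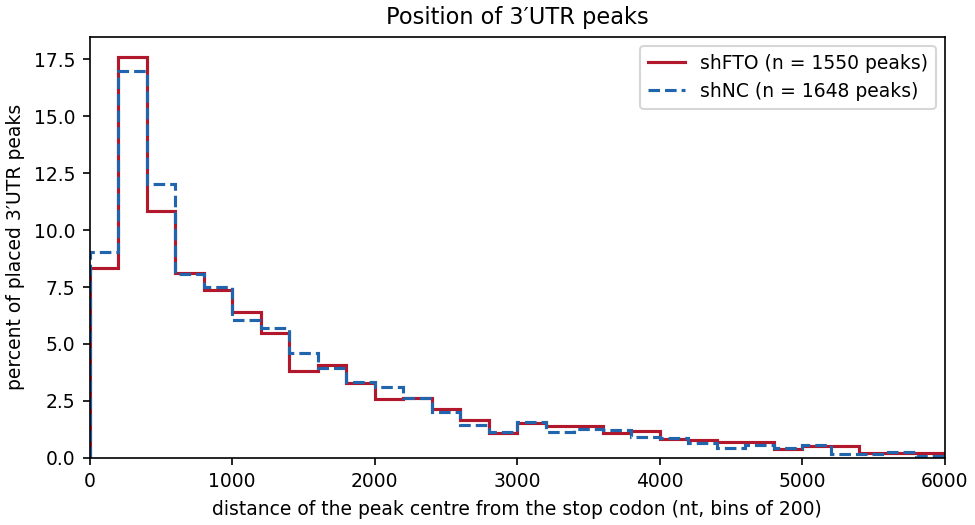
Percent of placed 3′UTR peaks (y axis) by the distance of the peak centre from the stop codon in nt (x axis, bins of 200 nt), for 1550 peaks of the shFTO list (solid) and 1648 peaks of the shNC list (dashed). Both lists have their highest bin between 200 and 400 nt and a long tail, with medians of 930.25 nt in shFTO cells and 900.5 nt in shNC cells.

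GGACU was found in 42.9% of the 3′UTR peaks of shFTO cells (1691 of 3942) and 40.4% of those of shNC cells (1682 of 4160). This difference of 2.46 points had a counting interval of 0.32 to 4.61, but it was 1.07 points (-0.71 to 2.86) when only motifs within 50 nt of the peak centre were counted, and 1.91 points (-0.38 to 4.21) when peaks that directly abut were joined. It has no replicate check, since there is 1 peak list per group. Nor was it particular to the 3′UTR. Coding sequence peaks held GGACU in 37.5% of cases in shFTO cells and 35.1% in shNC cells, and stop codon peaks in 43.9% and 42.2%. In the 5′ untranslated region the shares were 30.6% and 30.5%. Among 3′UTR peaks the share was higher at higher scores. It was 34.4% for peaks with a mean log2 score below 2, 43.5% between 2 and 3, 45.8% between 3 and 4 and 52.2% from 4 upwards in shFTO cells, against 35.1%, 40.1%, 44.5% and 44.8% in shNC cells. Widths were close across these classes, with medians between 241 and 268 nt.

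Compared with the other regions, 3′UTR peaks held GGACU about as often as stop codon peaks and more often than coding sequence peaks. The difference from stop codon peaks was -1.0 points (-3.22 to 1.22) in shFTO cells and -1.72 points (-3.90 to 0.46) in shNC cells, and it was 2.16 and 1.99 points in shFTO and shNC cells with abutting peaks joined. The difference from coding sequence peaks was 5.38 points in both lists, with intervals of 3.41 to 7.35 in shFTO cells and 3.48 to 7.28 in shNC cells. It was 2.92 points in shFTO cells and 2.99 points in shNC cells when only motifs within 50 nt of the peak centre were counted.

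**Figure D2:**
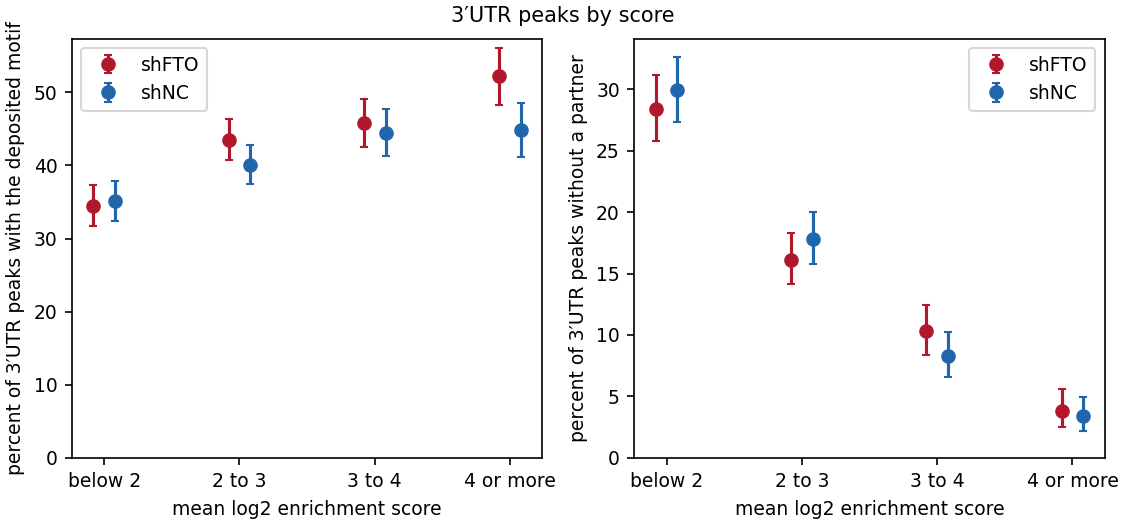
3′UTR peaks grouped by mean log2 enrichment score (x axis), with the percent that hold GGACU (left panel) and the percent without an overlapping peak in the other list (right panel). Points are shares of peaks and bars exact 95% intervals, with shFTO left of shNC in each class, and the share without a partner runs between 28.4% and 3.83% in shFTO cells and between 29.9% and 3.37% in shNC cells, lowest at the highest scores.

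The sequence of 3′UTR peaks also differed from that of the rest of the same 3′UTRs. This was measured on isoforms whose match was the same with and without the motifs of their 3′UTR peaks. There were 503 such peaks of the shFTO list and 560 of the shNC list. Each peak was set against stretches of its own length in the same 3′UTR, outside all peaks of both lists (6229 and 7126). A 3′UTR with several peaks was cut into stretches anew for each, so these are not all distinct. Each percent given for the stretches is the mean, over peaks, of the value among a peak's own stretches. Every peak thus has the same weight, whatever its number of stretches. The full match required the GGACU inside these peaks to be the listed ones, which was not required of the stretches. Each motif was searched on the mRNA strand only and scored as present or absent, and the values describe the peaks without a test. GGACU was in 46.7% of the shFTO peaks and 15.1% of the remaining stretches, and in 44.5% of the shNC peaks and 14.8% of the stretches. The related sequences GGACA and GGACC were in 37.4% and 34.6% of the shFTO peaks, against 21.0% and 15.4% of the stretches. AAACU, at the weak end of the m6A sequences, was in 29.6% of the shFTO peaks and 25.5% of the stretches. In shNC cells GGACA was in 37.1% of the peaks and 19.8% of the stretches, GGACC in 31.2% and 15.9%, and AAACU in 28.0% and 25.2%.

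Elements that other regulators of the 3′UTR bind were less frequent in the peaks. UGUANAUA, the sequence that Pumilio proteins bind, was in 1.99% of the shFTO peaks and 7.17% of the stretches, and in 1.61% of the shNC peaks and 6.27% of the stretches. AUUUA, the core of AU-rich elements, was in 17.3% of the shFTO peaks and 29.5% of the stretches (shNC 15.9% and 27.4%), and AAUAAA, the usual polyadenylation signal, in 9.74% of the shFTO peaks and 13.5% of the stretches (shNC 7.86% and 13.4%). The peaks were richer in G and C, at 51.6% of bases in shFTO cells against 46.3% in the stretches and 51.4% in shNC cells against 46.4%. Position differed as well, since placed peaks were denser towards the stop codon, whereas the stretches ran over the whole 3′UTR up to its end. The part of base composition and of position in these differences was not tested.

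To compare levels, peaks of the 2 lists were paired when they overlapped by at least 1 nt on the same isoform. Of the 3942 peaks of shFTO cells, 641 overlapped no peak of shNC cells, 2337 overlapped exactly 1 that was a 3′UTR peak as well, 71 overlapped exactly 1 that was a stop codon peak, and 893 were in groups of 3 or more overlapping peaks. For the 4160 peaks of shNC cells these numbers were 695, 2337, 69 and 1059. The 2337 pairs with 3′UTR peaks on both sides, in 1894 genes, were tested with limma in a fit over all 12117 such pairs of any region. An exact permutation test of a single pair, 2 replicates against 2, cannot go below a two-sided p of 0.333.

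No 3′UTR pair passed the test after FTO knockdown. With limma and Benjamini-Hochberg adjustment over all 12117 pairs, 0 of 2337 pairs were called at an adjusted p of 0.05 (0% of all pairs were), and the lowest adjusted p was 0.285. At an unadjusted p of 0.05, 55 pairs were higher in shFTO cells (2.35%, against 2.3% of all pairs) and 85 were lower (3.64%, against 3.68% of all pairs). The 2 groups did not overlap in 379 pairs with higher shFTO scores (16.2%, against 15.7% of all pairs) and in 388 with lower shFTO scores (16.6%, against 17.7%). These shares were near those of all pairs. Without shFTO replicate 2, 5 of the pairs were called (3 of WIPI2, MICOS10 and CDKN2B), and without shFTO replicate 1, 2 were (MICOS10 and SPRED1). The log2 ratio of shFTO over shNC had a median of -0.02, against -0.01 for all pairs. Of the 3′UTR pairs, 1935 (82.8%) lay within 0.5 of 0 on the log2 scale, against 82.5% of all pairs.

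The spread between replicates set the limit of this comparison. The scores of the 2 shFTO replicates differed by a median of 0.31 on the log2 scale and those of the 2 shNC replicates by 0.34. The group means differed by a median of 0.23. A mean of 2 replicates varies less than a single replicate, so these values do not compare directly. The limma interval of a typical pair reached 0.71 to each side of its log2 ratio, and after adjustment even a ratio as far from 0 as the 2.59 of MICOS10 was not called. Across the 2337 pairs the correlation of scores was 0.90 within shFTO and 0.90 within shNC, and it lay between 0.87 and 0.92 for replicates of different groups. The highest, 0.92, was between shFTO replicate 1 and shNC replicate 2, above the value within either group. The lowest, 0.87, was between shFTO replicate 2 and shNC replicate 2. These correlations run across pairs that share libraries, and pairs are not independent replicates. Of the 2337 pairs, 14 had a log2 ratio of 1 or more and 34 one of -1 or less, against 99 and 163 of all 12117 pairs.

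**Figure D3:**
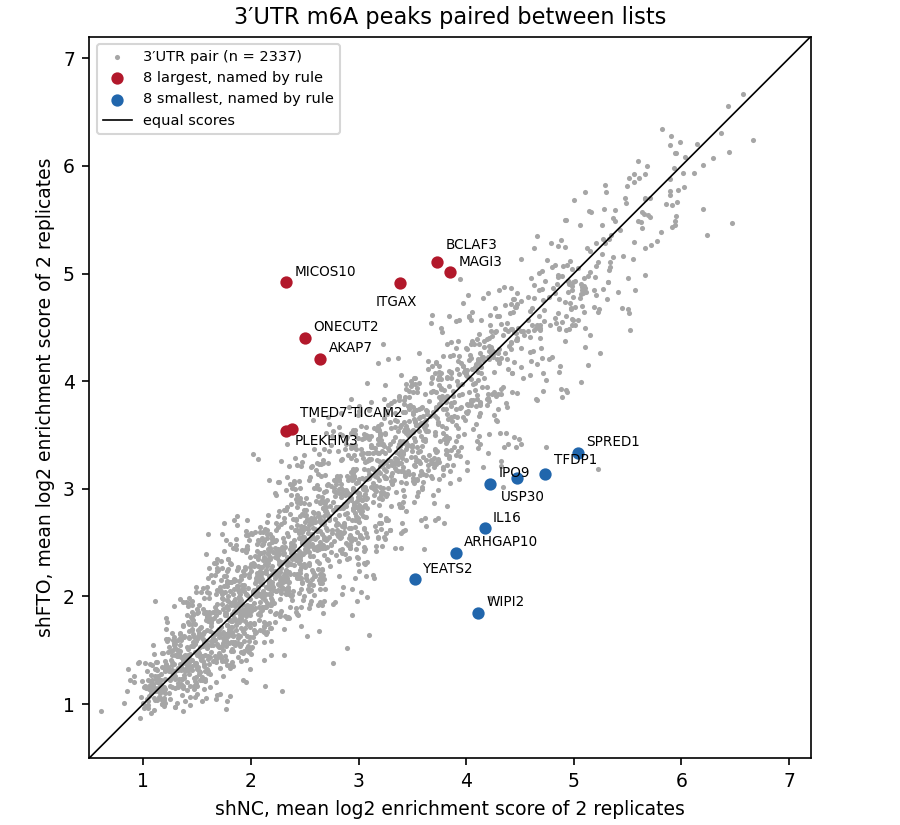
Mean log2 enrichment score of 2337 paired 3′UTR peaks in shFTO cells (y axis, mean of 2 replicates) against shNC cells (x axis, mean of 2 replicates), with the line of equal scores. Red and blue points mark the 8 largest and the 8 smallest log2 ratios, 1 pair per gene, among pairs without overlap of the groups and with at least the median score. Of the 2337 pairs, 82.8% have a log2 ratio within 0.5 of 0.

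The strongest 3′UTR peaks had closely matching scores. PURB, which encodes a protein that binds single-stranded DNA and RNA, had the highest mean score, with 6.70 and 6.63 in shFTO replicates 1 and 2 and 6.62 and 6.53 in shNC replicates 1 and 2. The 2 groups did not overlap, but the 95% interval of the log2 ratio of 0.09 ran between -0.55 and 0.73. MBTPS1, the site-1 protease that activates membrane-bound transcription factors, scored 6.21 and 6.40 in shFTO cells and 6.45 and 6.29 in shNC cells. MCM3, a subunit of the replicative helicase, scored 5.91 and 6.24 in shFTO cells and 6.40 and 6.19 in shNC cells. In both mRNAs the groups overlapped, and the peak held the GGACU shown above. THBS1, the matrix protein thrombospondin 1, scored 6.26 and 5.76 in shFTO cells and 6.29 and 6.12 in shNC cells, again with overlap.

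Of the other genes among the 8 strongest, PAG1 encodes a membrane adaptor that recruits the kinase CSK and PDE8A a phosphodiesterase of cAMP, and their log2 ratios were 0.13 and 0.06. ATP8B2, a phospholipid flippase, scored 6.13 and 6.35 in shFTO cells and 6.75 and 6.57 in shNC cells. PAFAH2, an acetylhydrolase of platelet-activating factor, scored 6.12 and 6.13 in shFTO cells and 6.45 and 6.43 in shNC cells. These 2 pairs were lower in every shFTO replicate, with log2 ratios of -0.42 and -0.31 (limma adjusted p = 0.933 and 0.960).

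Large ratios are described here without support from a call. The genes were chosen for their ratios, 1 pair per gene, among pairs whose groups did not overlap and whose mean score was at or above the median. MICOS10, a mitochondrial protein needed for cristae junctions, had scores of 4.74 and 5.10 in shFTO replicates 1 and 2 and 2.63 and 2.02 in shNC replicates 1 and 2, a log2 ratio of 2.59 (limma standard error 0.33, adjusted p = 0.285). The shFTO peak was 180 nt wide and lay inside the shNC peak of 284 nt, and the mRNA had no other paired peak. ONECUT2, a homeobox transcription factor, scored 4.41 and 4.39 at a peak of 240 nt in shFTO cells. In shNC cells it scored 2.42 and 2.58 at a peak of 157 nt, a log2 ratio of 1.90 (limma adjusted p = 0.286). Its other 2 paired 3′UTR peaks had ratios of 0.38 and 0.47 and its stop codon peak one of -0.20, so the difference was greatest in a single stretch.

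AKAP7, which anchors protein kinase A, scored 3.97 and 4.44 in shFTO cells and 2.87 and 2.42 in shNC cells, with a shFTO peak of 260 nt against a shNC peak of 130 nt. ITGAX, the integrin subunit known as CD11c on myeloid cells, scored 4.84 and 4.98 in shFTO cells and 3.49 and 3.28 in shNC cells at peaks of similar width (254 and 240 nt). BCLAF3 scored 5.12 and 5.09 in shFTO cells and 4.14 and 3.32 in shNC cells. In BCLAF3 the peak of the coding sequence was higher in shFTO cells as well, by a log2 ratio of 0.99. PLEKHM3, TMED7-TICAM2 and MAGI3 completed the 8 genes with ratios of 1.21, 1.17 and 1.17. TMED7-TICAM2 is a readthrough gene that shares its exons with TMED7 and TICAM2, so its reads cannot be assigned to it alone.

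WIPI2, which helps to recruit the lipidation machinery to forming autophagosomes, had the smallest ratio. The pair scored 1.61 and 2.08 in shFTO replicates 1 and 2 and 4.24 and 3.99 in shNC replicates 1 and 2, a log2 ratio of -2.27 (limma standard error 0.31, adjusted p = 0.285). The next 3′UTR peak of WIPI2 scored 1.49 and 2.48 in shFTO cells and 4.01 and 4.43 in shNC cells, and the last one 3.03 and 3.34 in shFTO cells and 5.13 and 5.32 in shNC cells. The stop codon peak was lower by a similar amount, with a ratio of -1.56. All 4 paired peaks of the mRNA were thus lower in both shFTO replicates, and because scores are relative to the mRNA's own median window, a shift of that window cannot be told apart from a change in the peaks.

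SPRED1, an inhibitor of RAS-ERK signalling, scored 4.01 and 2.66 in shFTO cells and 5.10 and 4.98 in shNC cells. The shFTO replicates differed from each other by more than 1 on the log2 scale, and the coding sequence peak of the same mRNA had a ratio of -0.31. TFDP1, the dimerization partner of E2F factors, scored 2.90 and 3.37 in shFTO cells and 4.96 and 4.51 in shNC cells at peaks with the same first and last nucleotide. USP30, a deubiquitinase of the outer mitochondrial membrane, scored 2.96 and 3.23 in shFTO cells and 4.67 and 4.28 in shNC cells. In these 3 mRNAs the groups did not overlap, with log2 ratios of -1.70, -1.60 and -1.38 (limma adjusted p between 0.539 and 0.645).

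The precursor of the cytokine IL16 had a 3′UTR pair that scored 2.99 and 2.27 in shFTO cells and 4.59 and 3.76 in shNC cells. The IL16 peaks overlapped only in part, at nucleotides 6031 to 6320 of the isoform in shFTO cells and 6185 to 6464 in shNC cells. ARHGAP10 scored 2.29 and 2.53 in shFTO cells and 4.41 and 3.40 in shNC cells. YEATS2, a histone reader of an acetyltransferase complex, scored 2.63 and 1.70 in shFTO cells and 3.19 and 3.86 in shNC cells. In YEATS2 a second 3′UTR peak had a ratio of -0.81 and the stop codon peak one of -0.18. IPO9, a nuclear import receptor, had 5 paired 3′UTR peaks, all with negative ratios between -1.35 and -0.62, and in each of them shFTO replicate 1 had the lowest score.

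**Figure D4:**
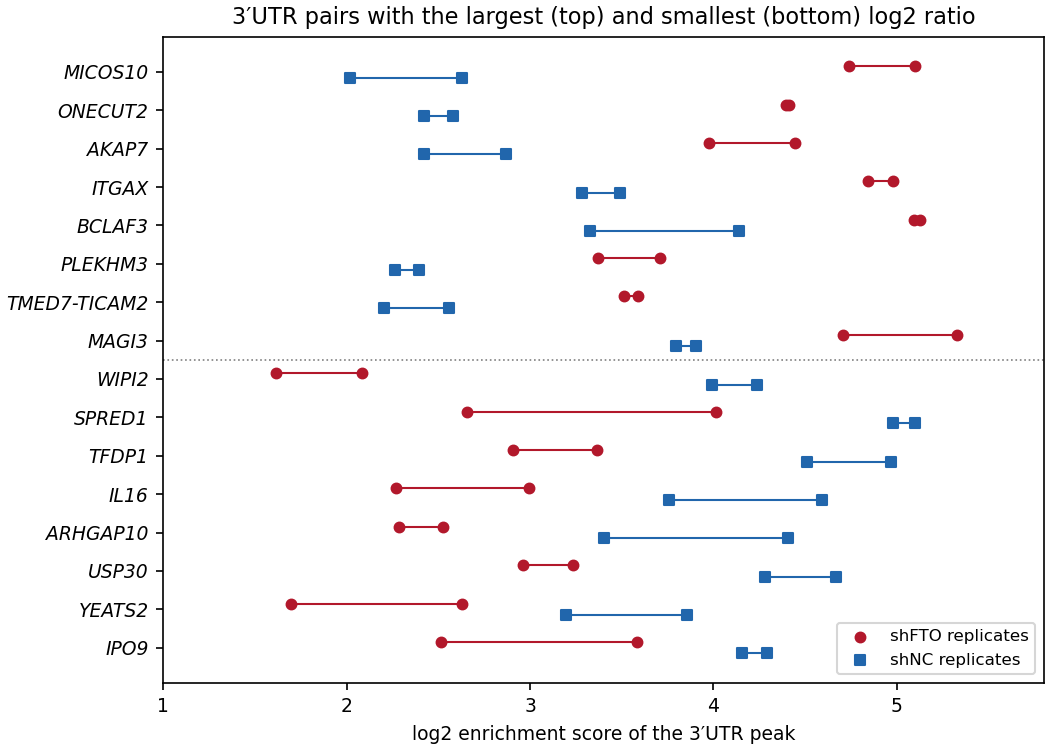
Log2 enrichment score (x axis) of each replicate of the 3′UTR pairs chosen for the 8 largest (MICOS10 to MAGI3) and the 8 smallest (WIPI2 to IPO9) log2 ratios, 1 pair per gene, with 2 shFTO replicates (red circles) above 2 shNC replicates (blue squares) for each gene and a line joining replicates. No groups overlap in these pairs, which is part of the rule that chose them, and SPRED1 and IPO9 have widely spaced shFTO replicates.

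The ratios of peaks on one mRNA were related. Over 362 genes with at least 2 paired 3′UTR peaks, the log2 ratios of the first 2 had a correlation of 0.45 across genes. Over 1082 genes with paired peaks elsewhere, the mean 3′UTR ratio correlated with that of the other peaks at 0.32. These values are descriptions across genes, since the peaks of a gene share libraries and the median window of their mRNA. The distance from the stop codon was known only for pairs on matched isoforms, which hold several GGACU motifs and are not a random sample. In these pairs the ratio had little relation to that distance, with medians between -0.05 and 0.03 in 6 distance classes.

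A total of 641 3′UTR peaks of shFTO cells (16.3%) and 695 of shNC cells (16.7%) had no partner in the other list, a difference of -0.45 points (-2.06 to 1.17) that was -3.78 points (-5.77 to -1.79) when partners had to have centres within 50 nt. 3′UTR peaks lacked a partner more often than stop codon peaks, by 8.07 points in shFTO cells (6.62 to 9.53) and 7.13 points in shNC cells (5.65 to 8.60). Stop codon peaks had the lowest share of all regions, with 8.19% in shFTO cells and 9.58% in shNC cells. In each list 15.6% of coding sequence peaks had no partner. In the 5′ untranslated region the share was 19.6% in shFTO cells and 19.5% in shNC cells. 3′UTR peaks without a partner were weak. Their median score was 2.0 in shFTO cells and 1.97 in shNC cells, whereas that of peaks with a partner was 2.76 and 2.82. Of the 641 and 695 peaks, 454 and 572 lay in genes that had another peak in the other list.

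The strongest 3′UTR peaks of the shFTO list without a partner were in YIF1B, PLEKHA6, PLOD1, NRP1 and GRB10. YIF1B, a membrane protein of the early secretory pathway, scored 5.60 and 6.94 in the 2 shFTO replicates, and its start codon peak was in both lists. PLEKHA6 scored 5.45 and 5.43 at the site shown above and had no peak of any region in the shNC list. The peaks of PLOD1, a lysyl hydroxylase of collagen (5.15 and 5.17), NRP1, a coreceptor of VEGF and semaphorins (5.07 and 5.27), and GRB10, an adaptor of the insulin receptor (4.79 and 5.06), began or ended at the nucleotide next to another shFTO peak that did overlap a shNC peak.

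In the shNC list the strongest 3′UTR peaks without a partner were in ATRN, KDR, ZNF451, RETREG2 and ATP11A. KDR, the VEGF receptor 2, scored 4.80 and 5.11 in the 2 shNC replicates and had no peak of any region in the shFTO list. RETREG2, of a family of endoplasmic reticulum proteins, scored 4.56 and 4.68, while its coding sequence peak was in both lists. ATP11A, a phospholipid flippase, scored 5.47 and 4.56 at 1 of its 3 shNC 3′UTR peaks, and the other 2 had partners. ATRN (attractin) scored 4.91 and 5.38, and ZNF451, a SUMO ligase with zinc fingers, 4.65 and 5.02, and in both mRNAs a further unpaired shNC peak followed directly. Of all 3′UTR peaks, 1041 in shFTO cells (26.4%) and 1259 in shNC cells (30.3%) abutted another peak of their own list, 337 and 431 of them a stop codon peak.

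Some mRNAs carried long runs of 3′UTR peaks. ADCY1, an adenylate cyclase, had the most, with 10 3′UTR peaks in shFTO cells and 8 in shNC cells, of which 5 could be paired. Its strongest 3′UTR peak in the shFTO list scored 4.79 and 4.64 and overlapped a shNC peak of 4.44 and 4.11, but it lay in a group of 3 or more overlapping peaks. The 5 paired peaks had mean scores between 0.99 and 2.49 in shFTO cells and between 1.44 and 2.11 in shNC cells. HIPK2, a nuclear kinase, had 8 3′UTR peaks in shFTO cells and 7 in shNC cells, and its 6 pairs had ratios between 0.01 and 0.65. IGFBP5, a binding protein of insulin-like growth factors, had 9 in shFTO cells and 6 in shNC cells. Only 1 IGFBP5 pair was free of further overlaps, at 4.11 and 4.22 in shFTO cells and 3.68 and 3.76 in shNC cells. ZKSCAN1, a zinc finger protein, had 6 and 7, and ABCB8, a mitochondrial transporter, 5 and 7 in the shFTO and shNC lists.

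Among the genes that the study follows, CD274, which encodes the checkpoint ligand PD-L1, had a 3′UTR peak in the shFTO list alone, with scores of 3.87 and 3.41 in the 2 replicates and 1 GGACU. It was the only peak of CD274 in either list. ATG5, of the conjugation machinery of autophagy, had a 3′UTR peak of 4.62 and 4.46 in shFTO cells that overlapped a stop codon peak of 4.23 and 4.72 in shNC cells, which began 16 nt earlier. ATG7, the activating enzyme of the same machinery, had a 3′UTR peak in the shNC list alone (4.37 and 3.56), and it lay inside a stop codon peak of 617 nt in shFTO cells. The label thus changed with the edge of the peak, as it did in 71 and 69 pairs with 3′UTR in one list and stop codon in the other. SOX10, which directs neural crest development, had a weak 3′UTR pair with 1.02 and 1.24 in shFTO cells and 1.15 and 1.02 in shNC cells. ANGPTL2 and FCMR had pairs with ratios of 0.29 and -0.33, and CXCR4 and CD47 had no 3′UTR peak in either list.

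The gene lists that follow are described by their counts and were not tested against other genes. Of all genes with a peak of any region, 28.9% had a 3′UTR peak in shFTO cells and 30.2% in shNC cells. The 3′UTR counts below run over all members of a list, also those without a peak. Members with any peak in shFTO and shNC cells were 12 each for microRNAs, 27 and 26 for decay and 27 each for 3′UTR regulators. They were 19 each for polyadenylation, 28 each for MAPK, PI3K and mTOR, and 17 and 20 for TGF-beta. For the invasive state they were 18 each, and for the cell cycle 14 and 15. For immediate early mRNAs they were 27 and 26, and for interferon gamma 18 and 19. Of 23 writers, erasers and readers of m6A, 22 had a peak of any region in shFTO cells and 23 in shNC cells, and 5 had a 3′UTR peak in each list. The readers IGF2BP2 and IGF2BP3, which stabilize their targets, had ratios of 0.49 and -0.33, and the eraser ALKBH5 scored 2.08 and 2.26 in shFTO cells and 2.28 and 2.16 in shNC cells. None of the 6 pairs of these genes reached an unadjusted p of 0.05 in limma. Over all 12117 pairs of any region, 2.3% were higher and 3.68% lower in shFTO cells at that level. At those shares, lists as short as these would hold few such pairs or none.

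In the microRNA pathway 6 of 13 genes had a 3′UTR peak in shFTO cells and 5 in shNC cells, among them AGO4, an Argonaute protein (4.18 and 4.26 in shFTO cells, 3.92 and 4.59 in shNC cells), and DGCR8, the partner of DROSHA (4.70 and 3.98 in shFTO cells, 4.45 and 3.64 in shNC cells). Of 31 genes of deadenylation, decapping and decay, 10 had one in shFTO cells and 14 in shNC cells. The helicase DDX6 scored 5.41 and 4.92 in shFTO cells and 5.67 and 5.24 in shNC cells, and the deadenylase subunit CNOT2 5.11 and 4.66 in shFTO cells and 5.30 and 4.66 in shNC cells. In all 4 of these mRNAs the groups overlapped.

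Of 33 RNA-binding regulators of 3′UTRs, 5 had a 3′UTR peak in shFTO cells and 8 in shNC cells. CELF1, which promotes deadenylation of GU-rich mRNAs, had 3 pairs, of which one with 2.41 and 1.97 in shFTO cells and 3.08 and 3.05 in shNC cells had a ratio of -0.88 (unadjusted p = 0.0165, limma adjusted p = 0.723). Its strongest pair scored 4.60 and 4.68 in shFTO cells and 5.40 and 5.04 in shNC cells, also without overlap of the groups. Of 20 factors of cleavage and polyadenylation, CPSF7 alone had 3′UTR peaks, in both lists. Of 33 genes of cytosolic ribosomal proteins, 14 in each list had a peak of any region, and 1 had a 3′UTR peak in shFTO cells and 2 in shNC cells.

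In the MAPK, PI3K and mTOR pathways, 18 of 31 genes had a 3′UTR peak in shFTO cells, 17 in shNC cells and 17 in both. RPTOR, the substrate-binding subunit of mTOR complex 1, scored 4.85 and 4.65 in shFTO cells and 5.03 and 4.40 in shNC cells, and ARAF, a kinase upstream of MEK, 4.08 and 3.85 in shFTO cells and 4.21 and 3.64 in shNC cells. Of the 18 pairs of this list 1, that of SPRED1, reached an unadjusted p of 0.05 with a lower shFTO score. Of all pairs, 2.3% reached it with higher and 3.68% with lower shFTO scores, so this count was near the background. Of 24 genes of TGF-beta and BMP signalling, 7 had a 3′UTR peak in shFTO cells and 8 in shNC cells, with ratios of their strongest pairs between -0.43 (SMAD5) and 0.66 (SMAD3).

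Of 24 genes of the melanocyte lineage and pigmentation, 21 had a peak of any region in shFTO cells and 20 in shNC cells, and 4 had a 3′UTR peak in shFTO cells and 3 in shNC cells. MC1R, the melanocortin receptor, scored 1.86 and 1.71 in shFTO cells and 1.32 and 1.58 in shNC cells, and TFAP2A, a transcription factor of melanocytes, 2.29 and 2.62 in shFTO cells and 2.78 and 2.58 in shNC cells. Genes of the invasive melanoma state had 3′UTR peaks in 10 of 25 cases in shFTO cells and 9 in shNC cells. The Hippo pathway factor TEAD1 scored 4.89 and 4.92 in shFTO cells and 4.70 and 5.42 in shNC cells. None of the 3 melanocyte and 11 invasive state pairs reached an unadjusted p of 0.05. Of all pairs, 2.3% reached it with higher and 3.68% with lower shFTO scores.

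Of 20 genes of the cell cycle and p53, 4 had a 3′UTR peak in shFTO cells and 5 in shNC cells. MDM2, the ubiquitin ligase of p53, had the strongest, with 6.07 and 5.90 in shFTO cells and 5.77 and 6.09 in shNC cells. E2F1, a transcription factor of S phase entry, scored 1.74 and 1.72 in shFTO cells and 2.43 and 2.50 in shNC cells, a ratio of -0.74 (unadjusted p = 0.0279, limma adjusted p = 0.757). The 2 groups were tight and apart, at peaks of 187 and 245 nt in shFTO and shNC cells. Of 31 immediate early and AU-rich mRNAs, 7 had a 3′UTR peak in shFTO cells and 8 in shNC cells. JUND, a subunit of AP-1, scored 3.72 and 3.36 in shFTO cells and 2.54 and 2.98 in shNC cells, a ratio of 0.78 (unadjusted p = 0.0341, limma adjusted p = 0.798), and VEGFA 2.80 and 2.84 in shFTO cells and 2.80 and 2.86 in shNC cells. In interferon gamma signalling and antigen presentation, 8 of 22 genes had a 3′UTR peak in shFTO cells and 9 in shNC cells. None of the 7 pairs of this list reached an unadjusted p of 0.05. Of all pairs, 2.3% did so with higher and 3.68% with lower shFTO scores.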

How the data were processed

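m6A-seq peak lists of Mel624 cells with shFTO or shNC were analysed. Per the labels and methods, the authors trimmed adapters with cutadapt, used TopHat2 (version 2.0.14) to align to hg38, and placed reads on the longest RefSeq isoform. Windows with read counts far below the top window of the mRNA in both IP and input were left out. Overlapping windows were merged into peaks if they had a log2 score of 1 or more. They also had to pass a false discovery rate limit in a Fisher exact test of IP against input. The deposited log2 scores carry no scaling to library size, and how both replicates became 1 list was not stated. Merging can move a peak's edges, its region label and its pairing.

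Pairs were fitted with limma version 3.58.1 in R 4.3.3 (2 replicates against 2, no covariates, Benjamini-Hochberg adjustment), and the fit was checked on simulated data. Python 3.11.15 with pandas 2.3.3 and scipy 1.17.1 gave the rest. Symbols were looked up in a RefSeq table (GRCh38.p14) for 10056 of 10078 isoforms, and isoforms were set on GENCODE version 44 transcripts where all listed GGACU fell on GGACU at 1 offset. A match also needed motif region labels that fitted the coding sequence, and no unlisted GGACU well inside a peak.

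The members and gene lists were chosen with earlier results of these data known. Named were the 8 genes with the highest mean score, the 8 largest and 8 smallest ratios among pairs without overlap of the groups and at or above the median score (1 pair per gene), the 5 strongest unpaired peaks of each list, the 5 genes with most 3′UTR peaks, up to 4 genes of each list and genes the paper names. Alternatives were other overlap rules, score minimums, scalings, 1 pair per gene, a width limit, joined peaks, the replicate number as a block and leaving out replicates. FTO mRNA levels were not analysed here.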

Additional observations from a re-analysis of the deposited data

How the results depend on the processing

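The count of 0 called 3′UTR pairs held under other overlap rules, score minimums, centring, quantile normalization, 1 pair per gene, a width limit and a robust trended fit. Leaving out 1 library gave 0 to 5 calls, with 2 (MICOS10, SPRED1) without shFTO replicate 1 and 5 (MICOS10, CDKN2B and 3 pairs of WIPI2) without shFTO replicate 2. The lone replicate is there assumed to vary like the other group. Same-numbered replicates were not treated as pairs in the main fit. Their deviations from the group means correlated at -0.21 over the 3′UTR pairs and -0.27 over all pairs. They thus tended to go opposite ways, and the reason was not tested. With the replicate block 0 pairs were called, and 1.41% of the pairs were higher and 2.82% lower at an unadjusted p of 0.05. Crossed pairing, added after seeing the data, gave 5 calls. The median log2 ratio was 0.003 after centring and ran between -0.062 and 0.050 without 1 library, so its sign depends on the scaling. The share of pairs without overlap of the groups was 27.4% to 38.6% for higher and 29% to 39.7% for lower scores without 1 library, since fewer values must then be apart.

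The unpaired share of 3′UTR peaks in shFTO minus shNC cells was -2.41 points when 50% of the shorter peak had to overlap and -3.78 points when peak centres had to lie within 50 nt. The difference from stop codon peaks was then 9.73 points in shFTO and 10.5 points in shNC cells, and 11.3 and 13.2 points, and it was 5.57 points in shFTO cells at a mean score of at least 2. The GGACU difference from stop codon peaks was 2.16 points in shFTO and 1.99 points in shNC cells with abutting peaks joined, and 0.77 points in shNC cells for motifs within 50 nt of the centre. Within 50 nt the difference from coding sequence peaks was 2.92 points in shFTO and 2.99 points in shNC cells. The cause was not tested. With no read counts, depth limits cannot be given.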

Other observations

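Among 3′UTR peaks without a partner that stood apart from every other peak of their own list, the following were chosen after their values were seen. In the shFTO list PLXNB1, a semaphorin receptor, scored 4.28 and 4.55, IL7R, the receptor of interleukin 7, 4.37 and 4.58, and TNFSF15, a ligand of the tumour necrosis factor family, 4.82 and 4.44. None of these genes had a peak of any region in the shNC list. In the shNC list TIAL1, an RNA-binding protein of stress granules, scored 4.39 and 4.82, and KIF13A, a kinesin motor, 4.23 and 4.48, and both had other peaks in the shFTO list.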
